A study of Rhamphochromis sp. 'chilingali' and Astatotilapia calliptera with 50 samples.

Results

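The step from 10 to 15 somite pairs in Astatotilapia calliptera was described here from 6 whole embryos, 3 with 15 somites (AC15) and 3 with 10 somites (AC10). They were taken by their labels from 50 embryos in all, 24 of A. calliptera and 26 of Rhamphochromis. AC embryos were wild-type, tank-reared A. calliptera 'Mbaka', and the later stage was set against the earlier one. The corresponding embryos of Rhamphochromis sp. 'chilingali', 3 at 15 somites (RC15) and 3 at 10 somites (RC10), were used for comparison, again wild-type and tank-reared. Both are cichlid fish of the Lake Malawi radiation. No embryo received a treatment. Each library holds the polyadenylated RNA of 1 embryo freed from its yolk. All embryos of a species came from 1 clutch, the eggs being kept apart and collected at intervals. Somites were counted on siblings that had been fixed and stained, so the stage is that of a cohort and not of the sequenced embryo. The p-values below therefore measure the spread between siblings of 1 clutch per species, pooled over both species and their stages. They say nothing of the spread between clutches, and the step in stage cannot be told apart from the time of collection. Only 236 of the 28001 gene entries could be given a symbol, nearly all of them because the study lists them as candidates or in enriched terms, so the genes named below are a choice made by that list. Entries without a symbol are given by their Ensembl identifier.

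Somites are blocks of mesoderm that bud in pairs, one after the other, from the presomitic mesoderm at the tail end of the vertebrate embryo. A molecular clock in that tissue and opposing gradients of Fgf, Wnt and retinoic acid signals set the pace, and fibronectin with its integrin receptor builds the boundary between one block and the next. The older somites at the trunk turn on the muscle programme while new ones still form behind them. In the same period neural crest cells, which arise at the border of the neural plate, leave the neural tube and move through the embryo to become pigment cells, craniofacial cartilage and bone, and peripheral neurons and glia. Stages through this window therefore mix young and older tissue along the body axis.

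Between 20926512 and 22396077 reads were counted on genes in the 6 embryos. Values are normalized counts, that is, reads divided by a size factor per embryo, and no scale per gene length was available, so levels are not compared between genes. Spearman correlations over the genes placed each of the 6 embryos nearest to its own stage (0.981 to 0.990 for AC15 embryos and 0.973 to 0.986 for AC10 embryos). The stage next in likeness was 18 somites for AC15 embryo 1, 20 somites for the other AC15 embryos and 15 somites for the 3 AC10 embryos. Libraries stood apart at 10 somites. In AC10 embryo 1, 345 genes were at least 4 times above both other AC10 embryos with at least 50 normalized counts, against 12 to 20 genes in each of the other 5 embryos. AC10 embryo 2 was at least 4 times below both other AC10 embryos in 68 genes, against 11 to 29 in each of the other 5 embryos. The 345 genes took 0.245% to 0.304% of all normalized counts in AC15 embryos, and 2.35% in AC10 embryo 1 against 0.191% and 0.249% in AC10 embryos 2 and 3. They were chosen as high in AC10 embryo 1, but their share was uneven elsewhere as well. It was 1.60%, 1.05% and 0.222% in AC embryos at 4 somites and 2.43%, 0.386% and 1.37% at 22 somites. In RC10 embryos it was 0.952%, 0.167% and 0.273%. Among the 345 genes, all tested, were gch2, 25 of the genes called lower in AC15 and 4 of those called higher. Of all genes tested, 2.71% were lower and 5.34% higher. The 345 were chosen as high in an AC10 embryo, which by itself leans toward lower calls. Results that rest on 1 embryo are given with and without it. Of the genes that define a whole embryo at this age, shha, the signal of notochord and floor plate, carried a symbol. It had 701, 707 and 832 normalized counts in AC15 embryos, against 848, 1002 and 1043.7 in AC10 embryos, and was not called. The heart list held nkx2.5 and gata5, neither of them called. gata5, a factor of heart, gut and the yolk syncytial layer, had 751, 714 and 669.7 normalized counts in AC15 embryos, against 2191, 559 and 748 in AC10 embryos, so that AC10 embryo 1 stood apart in it too. No 2 embryos had identical values.

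At 15 somites 1129 genes were higher and 573 were lower than at 10 somites, of 21123 genes tested. The higher calls were 5.34%, the lower calls 2.71% and both together 8.06% of the genes tested. Among genes with a symbol 8.97% were called in each direction, an even split that was not kept without AC10 embryo 1 (14 higher and 24 lower of 234). Counts for the lists below are to be read against these shares. Some lists were taken from the study of these samples, and the others were chosen with earlier results of these data known. None of their counts is independent evidence. A gene was called where limma gave a Benjamini-Hochberg adjusted p below 0.05 and the difference passed 1.5-fold on the log2(normalized count + 1) scale. The fit covered 47 embryos of both species from 4 to 30 somites, which share 1 estimate of the spread. Rhamphochromis embryos thus enter the error of the AC step. All log2 values below are on the log2(normalized count + 1) scale, AC15 minus AC10, with the SE of that fit. The genes called higher were changed more, with a median absolute log2 change of 1.46 against 0.79 for those called lower, and 337 of them against 49 passed a log2 change of 2. The 2 sets also differed in counts. The larger of the 2 stage means had a median of 115 normalized counts for higher calls and 1009 for lower calls. Sizes of change were therefore not compared at like counts. Of the higher calls 91.1%, and of the lower calls 79.8%, had no overlap between the 3 and 3 embryos, while 15.9% and 9.49% of all genes tested lay apart in those directions. In AC10 embryos 42 of the genes called higher had no read at all, and 6 of the genes called lower had none in AC15 embryos. The share of higher calls was 66.3%, but it was 53.8% after quantile normalization and 55.0% with the TMM factors of edgeR, while the median log2 change of all genes was 0.06.

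The size of the count rested on the shared spread and on single embryos. The 6 embryos fitted alone gave 127 calls, 117 higher and 10 lower, and 7 of the 36 called genes named here were among them (dcn, ednraa, itga5, mustn1b, rbm24b, ENSACLG00000015908 and ENSACLG00000016113). The 24 AC embryos fitted alone, without Rhamphochromis, gave 1058 higher and 338 lower calls. Without AC15 embryo 1 there were 759 higher and 178 lower calls, and it was the lowest AC15 embryo in 79.9% of the genes called lower. Without AC10 embryo 1 there were 985 higher (4.66%) and 600 lower (2.84%) calls, 7.5% in all. Without AC15 embryo 2 there were 621 higher calls. Without AC15 embryo 3 the lower calls numbered 1063. AC10 embryo 2 was the highest AC10 embryo in 63.2% of the genes called lower, and 852 higher and 379 lower calls were left without it. No gene called with all embryos was called in the opposite direction in any alternative fit.

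**Figure D1:**
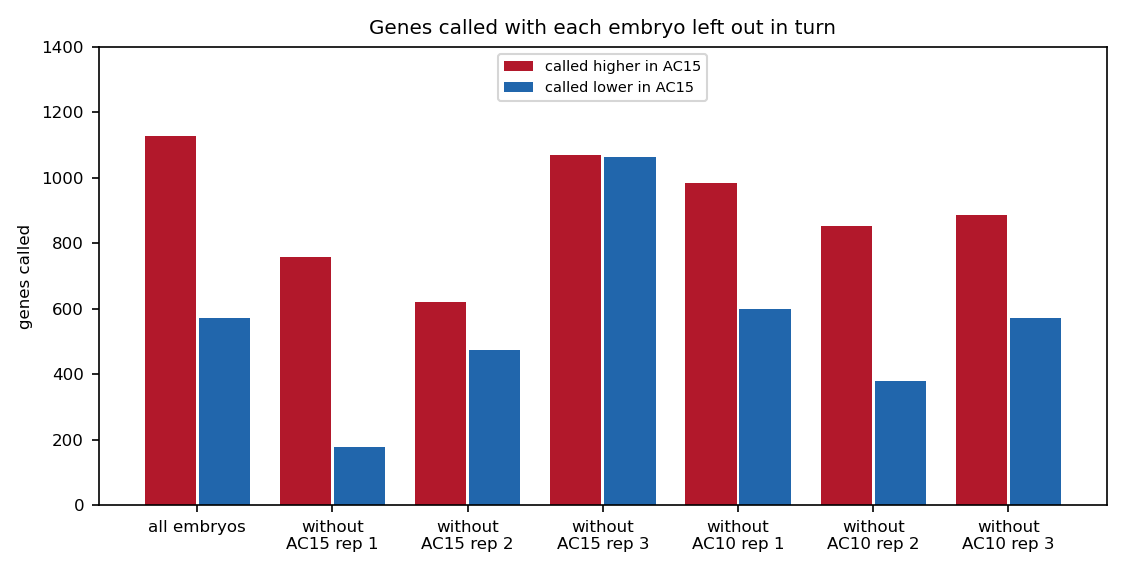
Number of genes called between AC15 and AC10 embryos when each of the 6 embryos is left out, with the counts of all embryos beside them. Bars start at 0 and show the genes higher and the genes lower in AC15. The lower calls run between 178 without AC15 embryo 1 and 1063 without AC15 embryo 3, a wider span than the 621 to 1071 of the higher calls.

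Of 14 tested genes listed for sarcomere organization, the assembly of the repeated contractile units of striated muscle, 7 were higher at 15 somites and 0 were lower by limma (8 and 0 by DESeq2). The 7 higher genes were 50% of the list, against 5.34% of all genes. The median log2 change of the list was 1.23, against 0.06 for all genes. Its summed level was 16300.5, 18188 and 17378 normalized counts in AC15 embryos, against 10525, 10227 and 9780.0 in AC10 embryos, so the stages did not overlap, and 1 member made up 52.3% of the sum. The list was taken from the terms that the study found on these samples, it holds part of the term only, and it is not independent evidence of a direction. Its members have no symbol here. In bulk samples such as these, a change in the number of cells of a type and a change in RNA per cell cannot be told apart.

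rbm24b (ENSACLG00000004207), a homologue of an RNA-binding protein that controls muscle splicing, had 1285, 1070.2 and 1027 normalized counts in AC15 embryos, against 329.9, 439 and 297 in AC10 embryos. The stages lay apart and the log2 change was 1.68 ± 0.28 (SE), with an adjusted p of 2.24e-04 in limma. chrna1 (ENSACLG00000026947), the alpha subunit of the acetylcholine receptor of skeletal muscle, had 160.2, 230.4 and 151 normalized counts in AC15 embryos, against 83.8, 79.5 and 87.4 in AC10 embryos. Its 3 AC15 values all exceeded the 3 AC10 values, with a log2 change of 1.08 ± 0.27 and an adjusted p of 0.00713 in limma. The call was lost without AC15 embryo 2, the highest of them, where the log2 change was 0.89. mustn1b (ENSACLG00000017872), whose description in the study's table does not match its symbol and which is given no role here, had 113, 116 and 142 normalized counts in AC15 embryos, against 22.0, 10.7 and 20.1 in AC10 embryos, a log2 change of 2.80 ± 0.53 at an adjusted p of 6.65e-04 in limma. It had the largest change among the genes with a symbol that were called higher, lay apart and reached a mean of 50. Both rbm24b and mustn1b were called whichever of the 6 embryos was left out.

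Of 5 myogenic regulators tested 0 were called in either direction by limma, 3 had an unadjusted p below 0.05, and DESeq2 called 0 higher and 1 lower. Their median log2 change was -0.42. The lowest of the 5, at -0.92, was one of those 3 and is counted again below with the segmentation clock. myf5 (ENSACLG00000017991), which starts the muscle lineage, had 1194, 733 and 912 normalized counts in AC15 embryos, against 1071, 2073 and 1605 in AC10 embryos, with an adjusted p of 0.0925 in limma. Only AC15 embryo 1 reached the AC10 range. For pax3a (ENSACLG00000027241), a factor of muscle precursors and of neural crest, the values were 817, 1081 and 1011 normalized counts in AC15 embryos, against 906, 1611 and 1239.6 in AC10 embryos. prdm1a (ENSACLG00000004069), which directs slow muscle fate and is also used in neural crest, had 681, 912 and 983 normalized counts in AC15 embryos, against 823, 1604 and 1115 in AC10 embryos. Both overlapped between the stages. Without AC10 embryo 1, which was the lowest AC10 embryo in each of them, 2 of the 5 were called lower, myf5 and prdm1a, with log2 changes of -0.97 and -0.66.

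Of 5 tested genes of the somite boundary and early somite, 3 were lower at 15 somites and 0 higher by limma (3 and 1 by DESeq2), with a median log2 change of -0.71. The 3 lower genes were 60% of this short list, against 2.71% of all genes and 8.97% of those with a symbol. The list was chosen with earlier results of these data known, so this share is not independent evidence. fn1a (ENSACLG00000008496), a fibronectin of the extracellular matrix around somites, had 2512, 4368 and 7571 normalized counts in AC15 embryos, against 9124, 11343 and 9917 in AC10 embryos. The AC10 embryos were all above the AC15 embryos, which themselves spread over a wide range. The log2 change was -1.21 ± 0.28 with an adjusted p of 0.00352 in limma, and -0.81 and not called without AC15 embryo 1. itga5 (ENSACLG00000022868), the alpha chain of the integrin that binds fibronectin, was steady within each stage. It had 917, 929 and 939.6 normalized counts in AC15 embryos, against 1567, 1601 and 1408 in AC10 embryos, a log2 change of -0.71 ± 0.15 at an adjusted p of 0.00134 in limma, and was called whichever embryo was left out. foxc1a (ENSACLG00000020494), a forkhead factor needed for somite formation, had 486, 472 and 654 normalized counts in AC15 embryos, against 701, 1219 and 876 in AC10 embryos. The log2 change was -0.77 ± 0.24, adjusted p 0.0313 in limma. That call was lost without any one of AC15 embryo 1, AC15 embryo 2, AC10 embryo 2 and AC10 embryo 3, where the log2 change was -0.80 to -0.56. The other members overlapped or missed the threshold. meox1 (ENSACLG00000024838), a homeobox factor of early somites, had 2022, 1742 and 1532 normalized counts in AC15 embryos, against 1431, 2157 and 1724 in AC10 embryos. nkx3-2 (ENSACLG00000003738), a factor of the sclerotome that gives rise to the axial skeleton, had 265, 319 and 269 normalized counts in AC15 embryos, against 112, 199 and 167 in AC10 embryos, with an adjusted p of 0.0945 in limma.

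In the study's list for somitogenesis 2 of 19 genes were higher and 6 lower, with fn1a, itga5, foxc1a and sulf1 (ENSACLG00000025450) among the lower ones. The counts were 10.5% and 31.6% of the list, against 5.34% and 2.71% of all genes. Its summed level was 17890.0, 22445 and 27829 normalized counts in AC15 embryos, against 27774, 35628 and 31002 in AC10 embryos. The highest AC15 sum lay just above the lowest AC10 sum, so the stages overlapped narrowly. sulf1, a sulfatase that edits heparan sulfate chains outside the cell, had 1049, 1601 and 1980.2 normalized counts in AC15 embryos, against 2154, 3268 and 2565 in AC10 embryos. Its log2 change was -0.81 ± 0.17 with an adjusted p of 0.00196 in limma, and -0.56 and not called without AC15 embryo 1. The study chose this list on these samples, so its direction is not independent evidence. Of the segmentation clock and presomitic mesoderm, 3 genes had a symbol and 0 were called by limma, although all 3 had an unadjusted p below 0.05 and 1 was lower with DESeq2. aldh1a2 (ENSACLG00000002839), which makes retinoic acid in the somites, was one of them, with 2173, 1509 and 1554 normalized counts in AC15 embryos, against 1855, 3638 and 2594 in AC10 embryos. It was called lower without AC10 embryo 1, at a log2 change of -0.84. fgf3 (ENSACLG00000000003), a growth factor of the tail and the hindbrain, had 86.9, 100.1 and 137 normalized counts in AC15 embryos, against 123, 221 and 169.8 in AC10 embryos. The remaining gene, not named here, had the largest fall of the 3, a log2 change of -0.92. It is the gene also counted among the myogenic regulators and in a list of Fgf signalling.

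**Figure D2:**
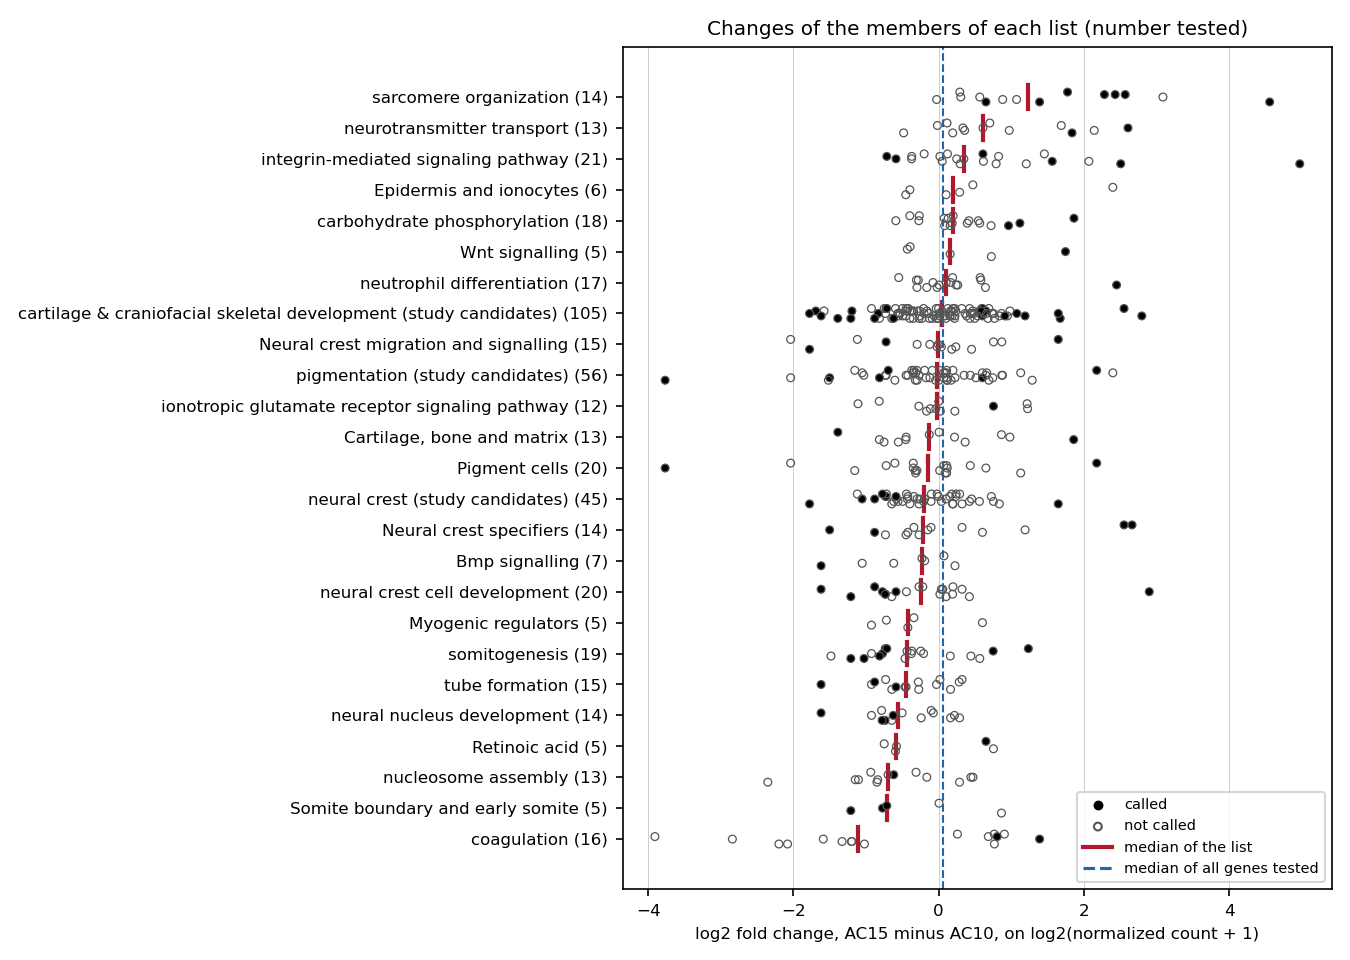
Log2 changes between AC15 and AC10 embryos (horizontal axis, AC15 minus AC10) of the members of each list with at least 5 tested genes. Each circle is a gene, filled where called, red bars are list medians and the dashed line is the median of all genes tested, 0.06. Sarcomere organization has the highest median (1.23), and the coagulation list the lowest (-1.11), which was 0.13 without AC10 embryo 1.

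Of the genes with a symbol, ednraa and ednrab were called higher and edn1 lower, and the last 2 of these calls depended on single embryos. Endothelin 1 is secreted by the pharyngeal arches and patterns the crest cells of the jaw, and endothelin receptors are carried by crest cells. ednraa (ENSACLG00000025655), an endothelin receptor A, had 191, 255 and 185 normalized counts in AC15 embryos, against 26.2, 49.4 and 25.1 in AC10 embryos. Every AC15 embryo was well above every AC10 embryo, and the log2 change was 2.66 ± 0.35 with an adjusted p of 1.44e-05 in limma. It was called in each of the 6 fits with an embryo left out. ednrab (ENSACLG00000011966), the second receptor A gene, had 396, 289.6 and 335 normalized counts in AC15 embryos, against 115, 17.2 and 89.4 in AC10 embryos. AC10 embryo 2 was far below the other AC10 embryos. The log2 change of ednrab was 2.55 ± 0.67 with an adjusted p of 0.00941 in limma, against 1.72 and no call without that embryo. edn1 (ENSACLG00000004243), the ligand, had 17.8, 35.5 and 29.8 normalized counts in AC15 embryos, against 72.3, 118 and 96.4 in AC10 embryos. It lay apart between the stages, at a log2 change of -1.78 ± 0.47 and an adjusted p of 0.00976 in limma, and missed the threshold without AC15 embryo 1, where the log2 change was -1.50. In both stages edn1 was read at a low level, between 17.8 and 118 normalized counts.

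Of 14 neural crest specifiers tested, 2 were higher and 2 lower by limma, and the median log2 change was -0.21. Each count was 14.3% of the list, against 5.34% and 2.71% of all genes and 8.97% each of those with a symbol. The higher ones were ednraa and ednrab, which are receptors. The lower ones were gbx2 (ENSACLG00000006488) and zic2a (ENSACLG00000026529), factors of the neural plate and its border. gbx2, which also marks the anterior hindbrain and the ear, had 135, 137 and 210.5 normalized counts in AC15 embryos, against 357, 542 and 460.1 in AC10 embryos, a log2 change of -1.50 ± 0.33 at an adjusted p of 0.00229 in limma. It was called whichever embryo was left out. zic2a had 778, 914 and 980.0 normalized counts in AC15 embryos, against 1180.4, 2439.5 and 1512 in AC10 embryos. The stages lay apart at a log2 change of -0.88 ± 0.25 and an adjusted p of 0.0148 in limma, but the call was lost without AC15 embryo 1 (-0.79) or AC10 embryo 2 (-0.59).

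The core factors of the crest did not pass the test at this step. sox10 (ENSACLG00000016156), the factor of crest cells that will give pigment cells, glia and neurons, had 608, 629.8 and 697 normalized counts in AC15 embryos, against 592, 914 and 865 in AC10 embryos. The log2 change was -0.27 ± 0.27 with an adjusted p of 0.567 in limma, and the table did not say which of the fish paralogs this entry is. foxd3 (ENSACLG00000001505), which keeps crest cells in an early state, had 326, 332 and 322 normalized counts in AC15 embryos, against 346, 709.7 and 651 in AC10 embryos. Its AC15 values were within a narrow range below all AC10 values, but AC10 embryo 1 was close to them, and the adjusted p was 0.186 in limma. tfap2a (ENSACLG00000020157), an inducer of the crest, had 3028, 3273 and 3938 normalized counts in AC15 embryos, against 3711, 3440.3 and 4168 in AC10 embryos. sox9b (ENSACLG00000025795), a factor of crest and of the cartilage made from it, had 863, 914 and 932 normalized counts in AC15 embryos, against 931, 1558 and 1286 in AC10 embryos. In both the stages overlapped, with log2 changes of -0.15 ± 0.14 and -0.45 ± 0.25.

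Of 15 genes of crest migration and signalling, 1 was higher and 2 lower by limma (3 and 4 by DESeq2), with a median log2 change of 0.00. The limma counts were 6.67% and 13.3%, against 5.34% and 2.71% of all genes and 8.97% each of those with a symbol. The higher one was aldh1l1 (ENSACLG00000026137), a folate enzyme, with 830.4, 1017 and 941 normalized counts in AC15 embryos, against 399, 165 and 388 in AC10 embryos. AC10 embryo 2 was the lowest, and the log2 change was 1.65 ± 0.42 at an adjusted p of 0.00758 in limma, against 1.23 and no call without it. Beside edn1 the lower one was cxcr4a (ENSACLG00000017624), a chemokine receptor that guides migrating cells, with 36.6, 35.5 and 33.0 normalized counts in AC15 embryos, against 61.8, 73.0 and 44.2 in AC10 embryos. Its log2 change of -0.72 ± 0.25 had an adjusted p of 0.0478 in limma and was called in 1 of the 6 fits with an embryo left out, the one without AC10 embryo 3, while the 6 fits ran over -0.92 to -0.57. erbb3b (ENSACLG00000006083), the neuregulin receptor of crest-derived glia, had 454, 391 and 419 normalized counts in AC15 embryos, against 353, 730.1 and 533 in AC10 embryos. ret (ENSACLG00000020251), the receptor of enteric crest cells, had 149, 185 and 163 normalized counts in AC15 embryos, against 138, 215 and 152 in AC10 embryos. In both genes the AC15 values lay inside the range of the AC10 values. The lowest log2 change of the 15 genes, -2.04, was that of a gene not called by limma and not named here.

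Among 20 genes of pigment cells 1 was higher and 1 lower by limma (1 and 3 by DESeq2), and the median log2 change was -0.14. The limma counts were 5% each, against 5.34% and 2.71% of all genes and 8.97% each of those with a symbol. tyrp1b (ENSACLG00000011752), a melanosome protein of the melanin pathway, had 208, 297 and 237 normalized counts in AC15 embryos, against 112, 22.5 and 59.3 in AC10 embryos. The stages lay apart and the log2 change was 2.18 ± 0.73 with an adjusted p of 0.0421 in limma, close to the threshold. The call held in 1 of the 6 fits with an embryo left out, that without AC10 embryo 1, and the log2 change ran over 1.57 to 2.71. gch2 (ENSACLG00000002031), an enzyme that starts the synthesis of pteridines, the pigments of yellow cells, had 198, 101 and 132 normalized counts in AC15 embryos, against 15797, 547 and 785 in AC10 embryos. AC10 embryo 1 stood far above the other AC10 embryos. With it the log2 change was -3.77 ± 1.12 at an adjusted p of 0.0216 in limma, and without it -2.24 with no call. Without AC15 embryo 2 the call was lost as well, at -3.54. Values as uneven as this were seen at other stages, since gch2 had 8448, 6027 and 314 at 4 somites and 16254, 1353 and 7642 at 22 somites.

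Other pigment genes missed the threshold. pmela (ENSACLG00000003862), which forms the fibres inside melanosomes, was abundant in all 6 embryos, with 2944, 2474 and 2588 normalized counts in AC15 embryos, against 3036, 1720.1 and 2867 in AC10 embryos. mitfa (ENSACLG00000022427), the master factor of melanophores, was read at 30.4, 40.9 and 27.6 normalized counts in AC15 embryos, against 28.3, 4.29 and 22.1 in AC10 embryos. AC10 embryo 2 was the lowest for mitfa, tyrp1b and pmela alike, and the adjusted p of mitfa was 0.262 in limma, at a log2 change of 1.13 ± 0.65. In the study's pigmentation candidates, which were chosen on these samples, 2 of 56 were higher and 4 lower (3.57% and 7.14%), against 5.34% and 2.71% of all genes and 8.97% each of those with a symbol, with a median log2 change of -0.02, and in its neural crest candidates 1 of 45 was higher and 6 were lower (2.22% and 13.3%). Without AC10 embryo 1, 10 of the 45 were lower, against 2.84% of all genes and 24 of the 234 genes with a symbol.

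**Figure D3:**
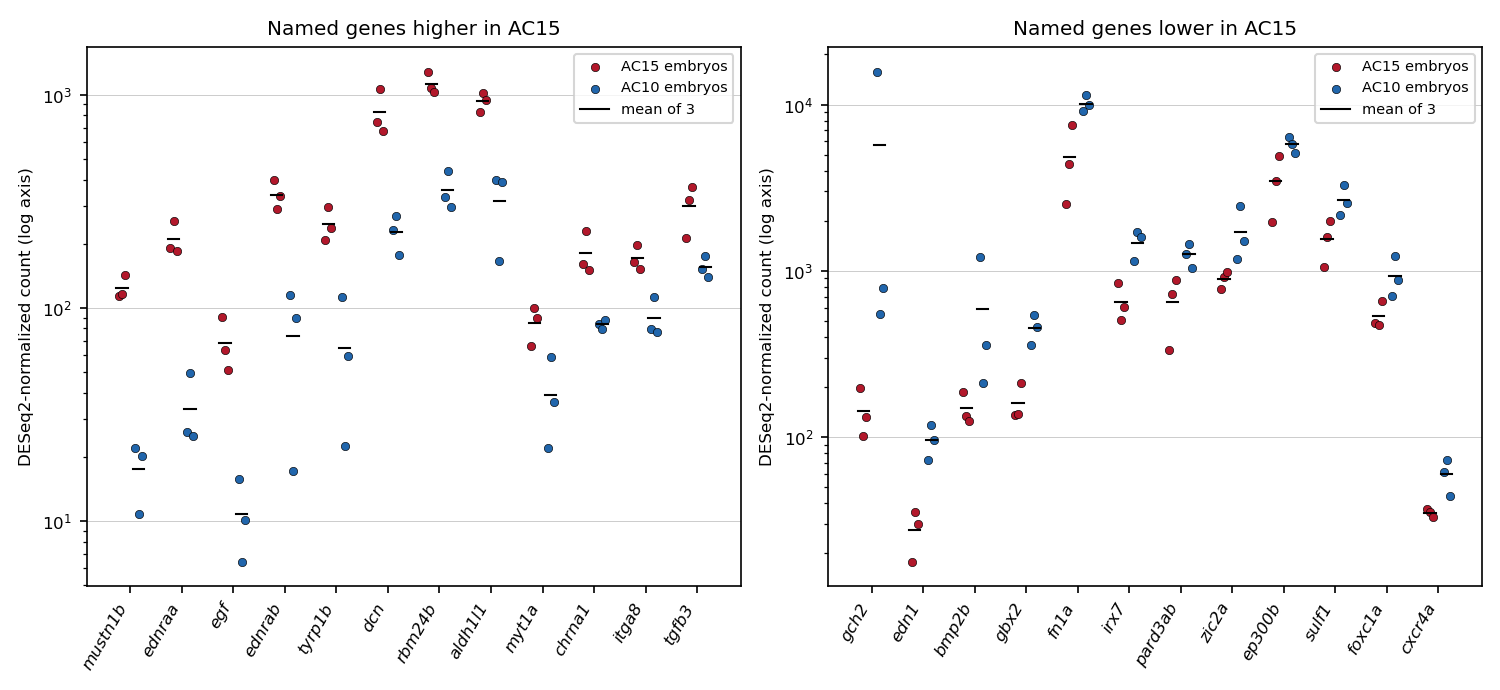
Normalized counts (log axis) of 12 named genes higher and 12 lower in AC15 embryos. Each point is an embryo, AC15 in red left of AC10 in blue, and bars are means of 3. The genes were chosen as those with no overlap, and single AC10 embryos stand apart in gch2, bmp2b and ednrab.

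The list for neural progenitors held 2 genes with a symbol, gbx2 and irx7 (ENSACLG00000018106), and both were called lower. They are factors of the neural plate, so these calls do not measure neural progenitors as a whole. The gbx2 call is the same one counted among the crest specifiers and, below, among the ear genes. irx7, an Iroquois factor of the neural plate described in the study's table as IRX-1-like, had 849, 504 and 603 normalized counts in AC15 embryos, against 1138, 1708 and 1590.2 in AC10 embryos. The stages were well apart, and the log2 change of irx7 was -1.19 ± 0.24 at an adjusted p of 0.00141 in limma, a call that held with any embryo left out. myt1a (ENSACLG00000004223), a zinc finger factor of differentiating neurons, had 66.0, 100.1 and 89.3 normalized counts in AC15 embryos, against 22.0, 59.1 and 36.2 in AC10 embryos. Its log2 change was 1.19 ± 0.35 at an adjusted p of 0.0216 in limma. That call was lost without AC10 embryo 1 (0.85), AC10 embryo 3 (1.19) or AC15 embryo 2 (1.07). Of the study's lists, neurotransmitter transport had 2 of 13 genes higher (15.4%) and 0 lower by limma (4 and 0 by DESeq2). Its median log2 change was 0.61, and 0.31 without AC10 embryo 1. Neural nucleus development had 4 of 14 lower (28.6%) and 0 higher (5 and 0 by DESeq2, median -0.56), and bmp2b was one of the 4. Tube formation had 3 of 15 lower (20%) and 0 higher (4 and 0 by DESeq2), including bmp2b and zic2a. The bmp2b call was lost without AC10 embryo 1. Of all genes 5.34% were higher and 2.71% lower. The study chose these lists on these samples, so their directions are not independent evidence. pard3ab (ENSACLG00000001398), a polarity protein that shapes the neural tube, had 335, 720.3 and 885 normalized counts in AC15 embryos, against 1265, 1455 and 1042 in AC10 embryos. The log2 change was -1.05 ± 0.23 with an adjusted p of 0.00222 in limma, and -0.64 without a call when AC15 embryo 1 was left out. Of 4 genes of the ear, gbx2 alone was lower (25%) and 0 were higher, against 2.71% of all genes and 8.97% of those with a symbol lower. foxi1 (ENSACLG00000003169), described in the table as forkhead box I2, had 681, 669 and 745 normalized counts in AC15 embryos, against 828, 879 and 1059.8 in AC10 embryos and an adjusted p of 0.178 in limma.

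Genes of the extracellular matrix and its receptors went both ways. dcn (ENSACLG00000022503), decorin, a small proteoglycan that binds collagen, had 747, 1060.5 and 678 normalized counts in AC15 embryos, against 233, 268 and 178 in AC10 embryos. The lowest AC15 value was far above the highest AC10 value, and the log2 change was 1.86 ± 0.34 at an adjusted p of 4.94e-04 in limma, whichever embryo was left out. col11a2 (ENSACLG00000019626), a chain of the fibrillar collagen XI of cartilage, had 113, 195 and 416 normalized counts in AC15 embryos, against 373, 899.8 and 494 in AC10 embryos. Here the stages overlapped through AC15 embryo 3, with a log2 change of -1.39 ± 0.40 and an adjusted p of 0.0178 in limma, and the call was lost without AC15 embryo 1, AC15 embryo 2 or AC10 embryo 2, where it was -1.34 to -0.95. itga8 (ENSACLG00000005710), an integrin alpha chain of mesenchyme, had 164, 198 and 152 normalized counts in AC15 embryos, against 79.6, 113 and 77.3 in AC10 embryos. Its log2 change of 0.94 ± 0.32 had an adjusted p of 0.0437 in limma. That call was lost without AC15 embryo 1, AC15 embryo 2, AC10 embryo 1 or AC10 embryo 3, where the log2 change was 0.83 to 0.96. dcn and col11a2 were the called members of 13 genes of cartilage, bone and matrix, 7.69% in each direction. Of all genes 5.34% were higher and 2.71% lower, and of those with a symbol 8.97% each. The median log2 change of the 13 genes was -0.13 (2 higher and 2 lower by DESeq2). sp7 (ENSACLG00000018596), the factor of bone-forming cells, had 364, 283 and 302 normalized counts in AC15 embryos, against 289, 365 and 386 in AC10 embryos and was not called. Among the study's candidates for cartilage and the craniofacial skeleton, chosen on these samples, 12 were higher and 11 lower (11.4% and 10.5%), against 5.34% and 2.71% of all genes and 8.97% each of the genes with a symbol, with a median log2 change of 0.05. Without AC10 embryo 1, 8 were higher and 13 lower, against 4.66% and 2.84% of all genes and 14 and 24 of the 234 genes with a symbol. The study's list of integrin-mediated signalling had 4 of 21 higher and 2 lower (19% and 9.52%), itga5 being one of the lower ones. That list was chosen on these samples too, so its counts are not independent evidence.

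Single members of signalling pathways passed the test. tgfb3 (ENSACLG00000024559), a secreted transforming growth factor, had 212, 321 and 369 normalized counts in AC15 embryos, against 152, 175 and 139.6 in AC10 embryos. AC15 values were all higher, the log2 change was 0.91 ± 0.16 at an adjusted p of 3.99e-04 in limma, and the call held with any embryo left out. egf (ENSACLG00000010483), the epidermal growth factor, had 90.1, 63.5 and 51.0 normalized counts in AC15 embryos, against 15.7, 6.44 and 10.0 in AC10 embryos. The log2 change of 2.60 ± 0.77 had an adjusted p of 0.0211 in limma. It was lost without AC15 embryo 1, AC15 embryo 2, AC10 embryo 2 or AC10 embryo 3, where it was 2.31 to 2.63. bmp2b (ENSACLG00000026096), a bone morphogenetic protein that patterns the back-to-belly axis, had 185, 135 and 125 normalized counts in AC15 embryos, against 1206, 213 and 358 in AC10 embryos. AC10 embryo 1 was again far above the others. The log2 change of bmp2b was -1.62 ± 0.39 at an adjusted p of 0.00567 in limma, and -0.91 without a call when AC10 embryo 1 was left out. bmp2b was the 1 lower call among 7 Bmp genes (14.3%), and 0 were higher. Of all genes 2.71% were lower, and of those with a symbol 8.97%. szl (ENSACLG00000027030), sizzled, an inhibitor in the same pathway, had 809, 423 and 803 normalized counts in AC15 embryos, against 2184, 660.4 and 1703 in AC10 embryos, and nog1 (ENSACLG00000020126), noggin, an antagonist that binds Bmp, had 733, 537 and 473 normalized counts in AC15 embryos, against 458, 612 and 571 in AC10 embryos. Neither was called.

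Of 5 Wnt genes 1 was higher (20%) and 0 were lower, against 5.34% of all genes and 8.97% of those with a symbol higher. This was wnt9a (ENSACLG00000017340), with 14.7, 26.9 and 13.8 normalized counts in AC15 embryos, against 0, 7.52 and 19.1 in AC10 embryos. Its stages overlapped at low counts, the log2 change was 1.75 ± 0.60 at an adjusted p of 0.0468 in limma, and without AC15 embryo 1, AC15 embryo 2 or AC10 embryo 1 there was no call, at 0.51 to 1.87. wnt5a (ENSACLG00000008991), a Wnt ligand of tissue extension, had 817, 641 and 618 normalized counts in AC15 embryos, against 466, 403 and 379 in AC10 embryos. It lay apart without passing the threshold (adjusted p 0.0764 in limma), and lef1 (ENSACLG00000022123), a transcription factor at the end of the pathway, had 276, 338 and 530.4 normalized counts in AC15 embryos, against 573, 519 and 409 in AC10 embryos. Among 5 genes of the retinoic acid pathway 1 was likewise higher (20%) and 0 were lower by limma (1 and 1 by DESeq2). Their median log2 change was -0.58, however, and without AC10 embryo 1 there were 0 higher and 2 lower. The higher one was nr2f2 (ENSACLG00000021486), a nuclear receptor of mesenchyme and vessels, with 362, 603 and 602 normalized counts in AC15 embryos, against 297, 405 and 280.3 in AC10 embryos. Its log2 change was 0.65 ± 0.18 and its adjusted p 0.0151 in limma. The stages overlapped, and the call was lost without AC15 embryo 2, AC15 embryo 3, AC10 embryo 1 or AC10 embryo 3, where it was 0.53 to 0.59. meis3 (ENSACLG00000012034), a homeobox cofactor of the hindbrain, had 3968, 4621 and 5381 normalized counts in AC15 embryos, against 6049.6, 8328 and 6538 in AC10 embryos. The adjusted p of meis3 was 0.0266 in limma, but the log2 change of -0.58 ± 0.18 was under the fold threshold.

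Outside these pathways eno1a (ENSACLG00000026267), an enolase of glycolysis, had 2076, 2571 and 1818 normalized counts in AC15 embryos, against 1285, 1049 and 1277 in AC10 embryos. All AC15 embryos were higher, at a log2 change of 0.83 ± 0.19 and an adjusted p of 0.00323 in limma, and the call held with any embryo left out. The study's list for carbohydrate phosphorylation had 3 of 18 genes higher (16.7%) and 0 lower (3 and 0 by DESeq2), with a median log2 change of 0.19. Of all genes 5.34% were higher and 2.71% lower. ep300b (ENSACLG00000014268), a histone acetyltransferase that acts at enhancers, had 1961, 3467 and 4931 normalized counts in AC15 embryos, against 6354, 5806 and 5115 in AC10 embryos. Its log2 change was -0.83 ± 0.18 at an adjusted p of 0.00242 in limma, and -0.47 and not called without AC15 embryo 1, the lowest. The study's list for nucleosome assembly had 1 of 13 genes lower (7.69%) and 0 higher by limma (2 and 0 by DESeq2) at a median log2 change of -0.70. Of the list for coagulation 2 of 16 were higher (12.5%) and 0 lower by limma (4 and 4 by DESeq2). The study chose the lists for carbohydrate phosphorylation, nucleosome assembly and coagulation on these samples, so their counts are not independent evidence. The summed coagulation level was 931, 845 and 719.6 normalized counts in AC15 embryos, against 2028, 592 and 659 in AC10 embryos. AC10 embryo 1 alone was above the AC15 embryos, and the median log2 change of the list was -1.11 with it and 0.13 without it. Markers of epidermis and ionocytes had 0 of 6 genes called by limma and by DESeq2, with 3 at an unadjusted p below 0.05.

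Over all 234 tested genes with a symbol, 21 were higher and 21 lower, 8.97% each, against 5.34% and 2.71% of all genes, and their median log2 change was 0.02. Nearly all calls were therefore in entries without a symbol. Without AC10 embryo 1, 14 of the 234 were higher and 24 lower. ENSACLG00000016113 had 766, 1879.8 and 839.7 normalized counts in AC15 embryos, against 19.9, 7.52 and 6.03 in AC10 embryos. With a log2 change of 6.63 ± 0.74 and an adjusted p of 9.62e-07 in limma it had the largest change of the genes called higher, and it was called with any embryo left out. ENSACLG00000015908 had 738, 1069 and 769.6 normalized counts in AC15 embryos, against 45.0, 7.52 and 12.1 in AC10 embryos. It was called at an adjusted p of 0.0231 in limma, at a log2 change of 5.62 ± 1.69, but not without AC15 embryo 1, AC15 embryo 2, AC10 embryo 2 or AC10 embryo 3 (5.11 to 5.72). For the entries that were lowest at 15 somites the call, but not the direction, depended on AC10 embryo 1. ENSACLG00000003159 had 0, 2.15 and 0 normalized counts in AC15 embryos, against 429, 11.8 and 16.1 in AC10 embryos, and ENSACLG00000008579 had 6.28, 1.08 and 2.13 normalized counts in AC15 embryos, against 1064, 26.8 and 28.1 in AC10 embryos. Both were called lower with adjusted p of 0.0153 and 0.0231 in limma. Without AC10 embryo 1 neither was called. The log2 change of ENSACLG00000003159 was then -3.33, against -4.96 ± 1.39 with that embryo. For ENSACLG00000008579 it was -2.98, against -4.72 ± 1.42. In both entries AC10 embryos 2 and 3 were still above every AC15 embryo. The calls were also lost without AC15 embryo 1 for ENSACLG00000003159 and without AC15 embryo 2 for ENSACLG00000008579 (-4.32).

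The other AC stages place the step in the course of each gene, as stage means of 3 embryos each. ednraa had 49.3 at 4 somites, 33.6 at 10 somites, 210.2 at 15 somites, 458 at 18 somites and 659 at 30 somites, so that the level went on climbing after 15 somites. ednrab had no read in any embryo at 4 somites and 73.9 at 10 somites, 340.1 at 15 somites, 626 at 18 somites and 739 at 30 somites. dcn had 28.7 at 4 somites, 226 at 10 somites, 828 at 15 somites, 2287 at 18 somites and 5597 at 30 somites. For rbm24b the means were 71.0 at 4 somites, 355 at 10 somites, 1127 at 15 somites, 1673 at 18 somites and 668 at 30 somites. irx7 ran the other way, with 6064 at 4 somites, 1479 at 10 somites, 652 at 15 somites, 520.0 at 18 somites and 134 at 30 somites. fn1a dipped in the middle of the series, with 46636 at 4 somites, 10128 at 10 somites, 4817 at 15 somites, 3472 at 18 somites and 9062 at 30 somites. sox10, which had no read in any embryo at 4 somites, had 790.1 at 10 somites, 645 at 15 somites, 669.8 at 18 somites and 587 at 30 somites. These means are given as a description and were not tested against each other here.

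**Figure D4:**
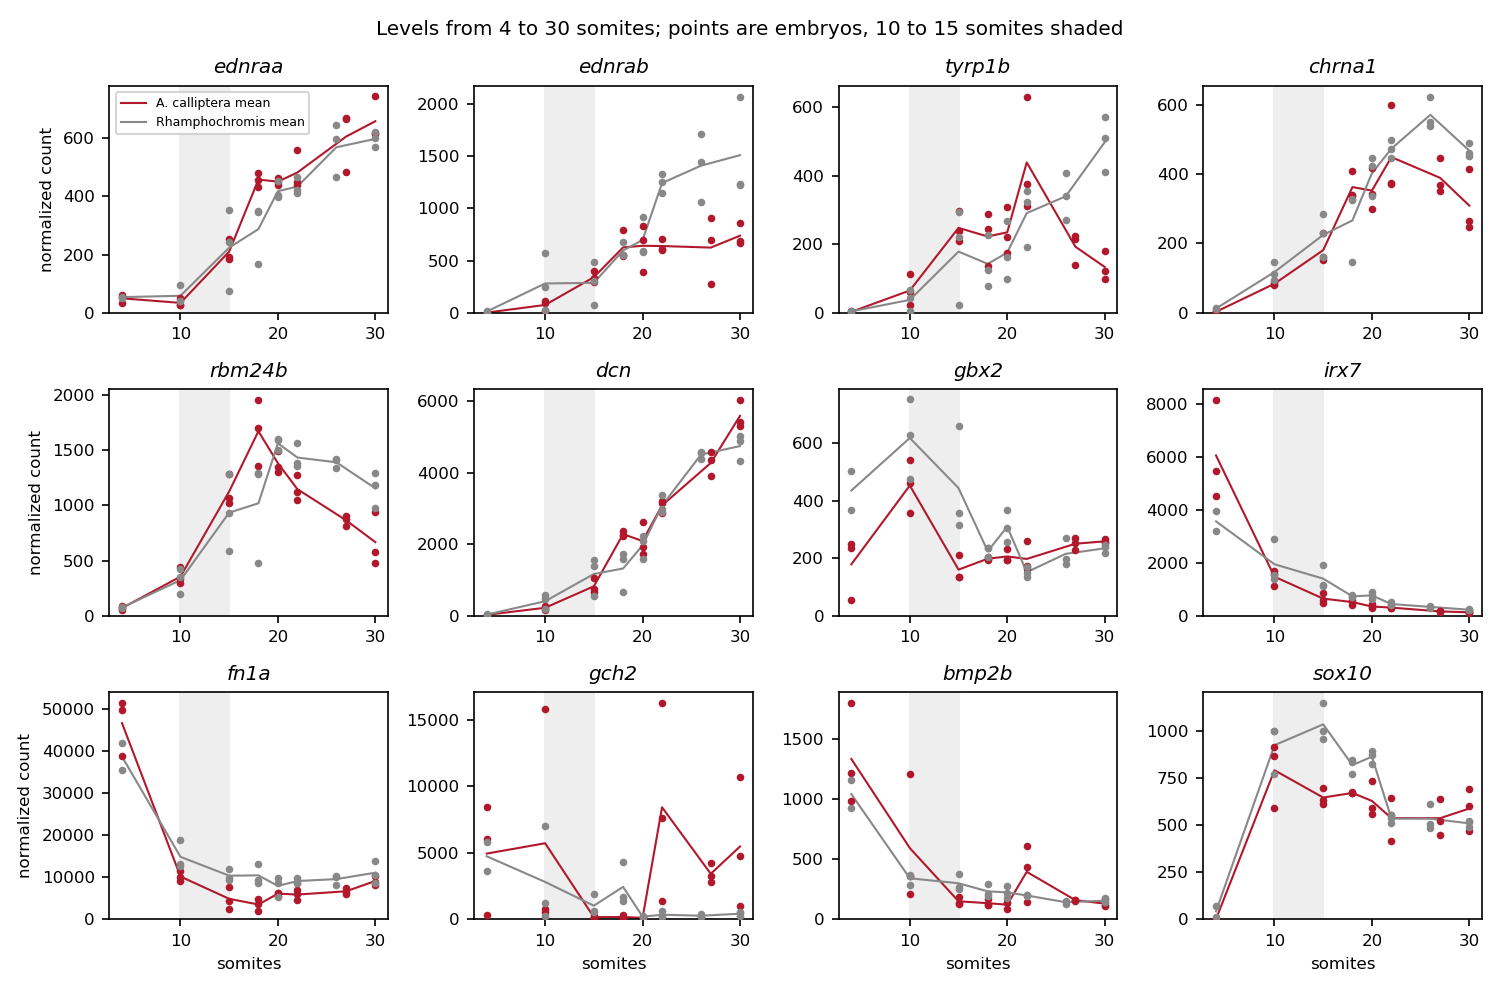
Normalized counts of 12 named genes (vertical axes, linear from 0) against the number of somites. Points are embryos and lines are stage means, AC in red and RC in grey, with 10 to 15 somites shaded. ednraa and dcn climb onward to 659 and 5597 at 30 somites in AC, and gch2 has single embryos at 15797 and 16254 in AC.

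Long noncoding RNAs (lncRNAs) were counted on 87056 to 114824 reads per embryo, and of 1087 tested 5 were higher (0.46%) and 2 lower (0.184%) at 15 somites, 0.644% in all. LOC113006439 had 463, 422 and 364 normalized counts in AC15 embryos, against 161, 208 and 174 in AC10 embryos, a log2 change of 1.199 ± 0.252 at an adjusted p of 0.00872 in limma. LOC113006433 had 59.0, 78.6 and 78.2 in AC15 embryos, against 24.2, 28.2 and 23.1 in AC10 embryos, and LOC113027420 had 21.7, 19.4 and 24.6 in AC15 embryos, against 6.30, 4.34 and 4.03 in AC10 embryos. In these 3 the stages were far apart relative to their spread. LOC113020978 had 16.6, 21.5 and 8.57 in AC15 embryos and no read in any AC10 embryo, which made it at least 4.95-fold higher when 3 reads per embryo are taken as the limit. LOC113016720 had 10.4, 7.54 and 6.42 in AC15 embryos, against 0, 1.08 and 0 in AC10 embryos. Of the lower ones LOC113019301 had 31.1, 10.8 and 15.0 in AC15 embryos, against 83.0, 153 and 148 in AC10 embryos (adjusted p 0.00514 in limma). LOC113031115 had 8.28, 0 and 0 in AC15 embryos, against 14.7, 33.6 and 16.1 in AC10 embryos. None of the 7 has a known role given in the tables. The number of calls was 1 without AC15 embryo 2 and 3 without AC15 embryo 3.

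Transposable elements are repeated sequences that can copy themselves within a genome, and the authors' counts of their families include reads with several places of origin, here 849526 to 964798 reads per embryo. Of 1503 families 2 were higher (0.133%) and 0 were lower by limma, while 197 had an unadjusted p below 0.05 in either direction and DESeq2 called 5 higher and 10 lower. Both are families of unknown class. The first, rnd-5_family-1322, had 126, 225 and 239 normalized counts in AC15 embryos, against 96.4, 105.5 and 101 in AC10 embryos, a log2 change of 0.90 ± 0.21. The other, rnd-6_family-3495, had 49.9, 40.1 and 34.5 in AC15 embryos, against 19.9, 16.3 and 21.2 in AC10 embryos, a log2 change of 1.07 ± 0.24, and the adjusted p was 0.0463 for each in limma. The stages lay apart in both. Of these 2 families 1 was still called without AC15 embryo 1, and 0 without any one of the other 5 embryos, in the 24 AC embryos alone or with the replicate number as a block, so calls made there were of other families (0 to 2 in all). Summed LINE counts were 101439, 103989 and 96334 in AC15 embryos, against 109116, 100791 and 97839 in AC10 embryos, and LTR counts were 80112, 82355 and 89385 in AC15 embryos, against 93066, 89234 and 98953 in AC10 embryos. The stages overlapped in both classes.

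Between RC15 and RC10 embryos 145 genes were higher (0.686%) and 6 lower (0.0284%), 0.715% in all, in the same fit and with no embryo in common. These counts depended on single RC embryos. RC15 embryo 3 was the lowest RC15 embryo in 78.0% of the 1129 genes higher in AC15, and without it 370 genes were higher and 36 lower in RC15. Without RC10 embryo 3 there were 260 and 9, and the total was 17 without RC15 embryo 1, 37 without RC15 embryo 2 and 22 without RC10 embryo 2, the alternatives being added after the values were seen. Of the 1129 genes higher in AC15, 102 were also higher in RC15, which is 9.03% of the AC list and 70.3% of the RC list. Of the 573 genes lower in AC15, 0 were among the 6 lower in RC15 by limma, and no gene called in both species was called in opposite directions. In RC the genes called higher in AC had a positive log2 change in 83.7% of cases, against 52.0% of all genes, with a median of 1.46 in AC and 0.55 in RC, or 0.78 in RC without RC15 embryo 3. These genes were chosen by their change in AC, and the 145 genes called higher in RC15 had medians of 1.69 in AC and 2.13 in RC. Those called lower in AC had a negative one in 78.0%, against 47.02% of all genes, with a median of -0.79 in AC and -0.14 in RC. Across 21123 genes, which are not independent replicates, the log2 changes of the 2 species had a Pearson correlation of 0.35 and a Spearman correlation of 0.28. The median absolute change was 0.31 in AC and 0.17 in RC. Reads of both species were mapped to the A. calliptera genome. Species, clutch and the exact age within a stage cannot be told apart.

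**Figure D5:**
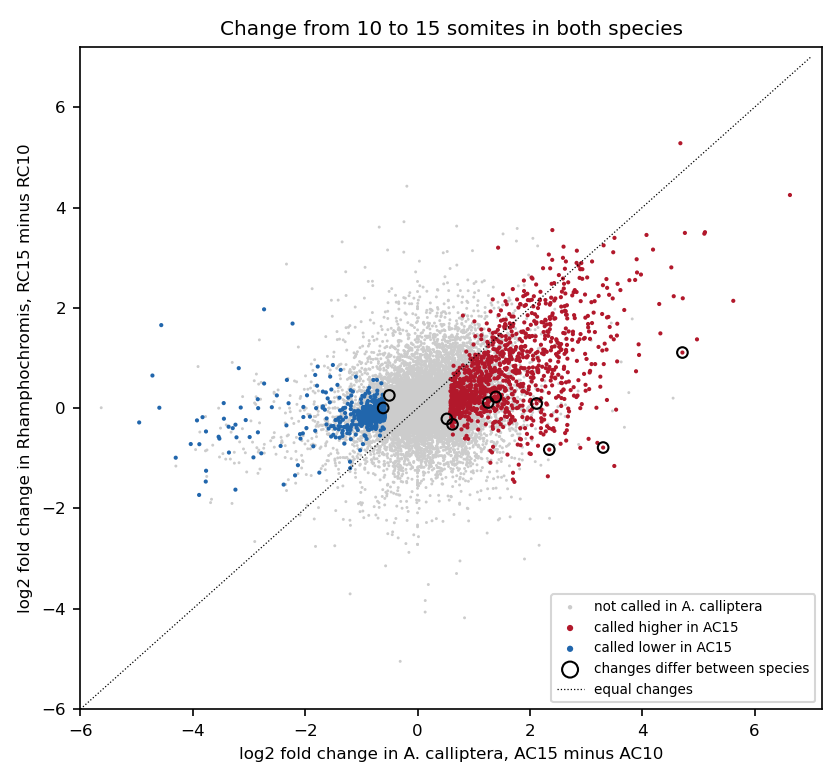
Log2 change of each of 21123 genes in AC (horizontal axis) against that in RC (vertical axis). Red and blue points were called higher and lower in AC15, the dotted line marks equal changes, and circles are the 10 genes whose change differed between the species. The red points, chosen by their change in AC, lie above 0 in RC in 83.7% of cases.

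The difference of the change between the species was tested as an interaction term in the same model. Of 21123 genes 10 passed (0.0473%), 8 with a positive (0.0379%) and 2 with a negative (0.00947%) difference, AC minus RC, while 2568 had an unadjusted p below 0.05 and DESeq2 called 131. None of the 10 has a symbol. The count was 271 without AC15 embryo 3, 180 without RC10 embryo 2, 33 without RC15 embryo 1, 1 without AC15 embryo 2 and 0 in a fit of the 12 embryos alone. ednraa had 242, 354 and 75.1 normalized counts in RC15 embryos, against 38.9, 41.0 and 94.4 in RC10 embryos, a log2 change of 1.79 that was called in RC as well, and its difference of 0.88 ± 0.49 between AC and RC missed the threshold (adjusted p 0.478 in limma). edn1 had 36.4, 62.4 and 159 in RC15 embryos, against 18.4, 26.7 and 124 in RC10 embryos. Its log2 change in RC was 0.83 ± 0.47 and was not called, and the difference was -2.61 ± 0.66 with an adjusted p of 0.0941 in limma. dcn had 1553, 1409 and 552 in RC15 embryos, against 464, 194 and 573 in RC10 embryos, was called higher in RC as well, and had a difference of 0.35 ± 0.48 between AC and RC with an adjusted p of 0.824 in limma. fn1a had 11872, 9725 and 9389 in RC15 embryos, against 13066, 18843 and 12518 in RC10 embryos, with a difference of -0.71 ± 0.39 and an adjusted p of 0.472 in limma. None of the genes with a symbol passed this test.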

How the data were processed

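RNA was sequenced from single whole embryos, and files for 50 embryos were read here. Trim Galore trimming, STAR mapping of both species to fAstCal1.2, gene counts of uniquely mapped reads with the HTSeq option and DESeq2 normalization were done by the authors. The deposited signal values are therefore normalized counts. TEs were counted with TEcount, multi-mapping reads included. Whether counting used strand is not given in the sources used here, so overlapping and antisense genes, and near-identical copies, are uncertain. Dividing by the value of 1 read gave whole reads for 100% of the values above 0, within 0.05. The 17 columns of group means were not used. A gene was tested if 2 or more of 47 embryos reached 10 normalized counts. limma 3.58.1 under R 4.3.3 was fitted with a variance trend to log2(value + 1) over 16 group means, with Benjamini-Hochberg adjustment over all features of a table. A call needed an adjusted p below 0.05 and an absolute log2 change above 0.585. The RC term and the difference of the changes came from the same model. A limit of 3 reads per embryo stands for no read and covers counting error only. The scripts were tested on simulated data.

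Groups came from the sample labels. The AC embryos named 26 somites in the gene table are labelled 27, and the TE table names AC embryos MB. Symbols came from the study's supplementary tables. Named genes were, among called genes with a symbol, a mean of at least 50 in a stage and no overlap, the 12 with the largest change in each direction. Up to 4 called and 2 defining uncalled members of each list, a few crest and muscle factors whatever their values, and up to 2 entries without a symbol in each direction were added. gata5 and shha are named outside this rule, as markers, and gata5 was chosen after its values were seen. The genes and lists were chosen with earlier results of these data known. Alternatives were pseudocounts of 0.1 and 10, other filters and fold thresholds, fits on fewer embryos, a replicate block, quantile normalization, edgeR 4.0.16 and DESeq2 1.42.0 on the recovered reads, and each embryo left out.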

Additional observations from a re-analysis of the deposited data

Results flagged for a closer look

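The test of whether the step from 10 to 15 somites differed between AC and RC called 10 genes, none with a symbol, and each of the 4 given here passed that interaction test in limma. ENSACLG00000010997 had 36.6, 109 and 44.6 normalized counts in AC15 embryos, against 4.19, 0 and 1.005 in AC10 embryos. In RC it had 64.6, 65.6 and 28.2 in RC15 embryos, against 21.5, 26.7 and 19.4 in RC10 embryos. The difference of the log2 changes, AC minus RC, was 3.61 ± 0.65 with an adjusted p of 0.0261 in limma. The AC10 embryos stood apart from the 9 others, near 0. It was still called under 16 of 23 alternatives, and not without AC15 embryo 2, AC10 embryo 2, RC10 embryo 1 or RC15 embryo 3 (3.04 to 4.23 over the 12 fits with an embryo left out).

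ENSACLG00000004804 had 2.09, 6.46 and 6.38 normalized counts in AC15 embryos, against 0, 1.07 and 0 in AC10 embryos. RC15 embryos had 108, 99.4 and 99.1, against 109.5, 98.3 and 81.5 in RC10 embryos, so the species were at very different levels throughout. Its difference was 2.03 ± 0.41 with an adjusted p of 0.0394 in limma, on a handful of reads in AC. It was still called under 9 of 22 alternatives, and not without AC15 embryo 2, AC10 embryo 1 or 3, RC15 embryo 2 or 3, or RC10 embryo 1 (1.81 to 2.45).

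ENSACLG00000002361 had 1136, 1440.5 and 1565 in AC15 embryos, against 2138, 1919 and 1775.0 in AC10 embryos, and in RC 2032, 1942 and 2221 in RC15 embryos, against 1683, 1853 and 1658 in RC10 embryos. Neither step was called by itself, with log2 changes of -0.50 in AC and 0.25 in RC. The AC step had an adjusted p of 0.00232 in limma and no overlap, but was under the fold threshold. The RC step had an adjusted p of 0.431 in limma. The difference was -0.76 ± 0.15 with an adjusted p of 0.0423 in limma. ENSACLG00000026203 had 643, 749 and 892 in AC15 embryos, against 1240.1, 1165 and 1062 in AC10 embryos, and in RC 1189.7, 1090.1 and 1125.0 in RC15 embryos, against 1039, 1253 and 1112 in RC10 embryos. Its difference was -0.62 ± 0.12 with an adjusted p of 0.0394 in limma, and RC values overlapped between the stages. These are the only 2 negative differences called. Both calls were lost with a pseudocount of 10, a replicate block, edgeR or the 12 embryos alone, and without AC15 embryo 1, AC15 embryo 2, AC10 embryo 1, AC10 embryo 2, RC15 embryo 2, RC15 embryo 3, RC10 embryo 1 or RC10 embryo 3. Over the fits with an embryo left out they ran from -0.85 to -0.62 for ENSACLG00000002361 and from -0.74 to -0.50 for ENSACLG00000026203, which was lost also without RC15 embryo 1.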

How the results depend on the processing

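Against 1702 genes called between AC15 and AC10 embryos, there were 127 in a fit of the 6 embryos alone, 971 with a log2 change above 1, 2902 without a fold threshold and 1034 with DESeq2 on the 6 embryos, and between 937 and 2134 with 1 embryo left out. The other alternatives lay within 1.5 times, between 1396 and 2058. Against 10 genes whose change differed between AC and RC, there were 29 and 2 with pseudocounts of 0.1 and 10, 6 with a log2 change above 1, 21 after quantile normalization, 131 with DESeq2, 1 with edgeR and 0 in the 12 embryos alone, and between 1 and 271 with 1 embryo left out. Against 7 lncRNAs, 3 were called in the 6 embryos alone, 0 of them among the 7, and 18 with DESeq2 on all embryos, and between 1 and 9 with 1 embryo left out. Against 2 TEs, 0 were called with a pseudocount of 10, in the 6 embryos alone and in the 24 AC embryos, 1 with a log2 change above 1, 4 without a fold threshold, 15 and 6 with DESeq2 on all embryos and on the 6, and between 0 and 2 with 1 embryo left out. Other fold thresholds change counts by their construction. For the rest the cause was not tested.

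Replicate numbers are shared by the stages, but same-numbered AC15 and AC10 embryos deviated together with r of -0.03, -0.03 and -0.05, so the numbers do not pair them, and no embryo correlated best with its own number. With the replicate number as a block there were 1650 gene calls (1072 higher and 578 lower), 7 lncRNAs, 0 TEs and 5 genes that differed between AC and RC. tyrp1b (2.18) and cxcr4a (-0.72) then missed the threshold.

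Over 59 named genes and their alternatives 955 of 1116 values kept direction and side of the threshold, 130 fell below it (29 of them in the 6 embryos alone, where 7 of the 36 called genes stayed called), 19 passed it and 12 turned sign, all 12 in uncalled genes near 0. These were ret (up to 0.19 with 1 embryo left out, lowest -0.13), pmela (-0.15 to 0.26), nog1 (-0.11 to 0.21) and meox1 (-0.14 to 0.16), the last also with DESeq2 (-0.0073 on all embryos, -0.063 on 6) and edgeR (-0.050). ednraa, dcn, mustn1b and rbm24b kept their call under every alternative run. Depth limits genes and lncRNAs of a few reads, where a fold change rests on the pseudocount.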
